A study of Mus musculus with 6 samples.

Results

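The genes described here are 10 genes of milk secretion (Csn1s1, Csn1s2a, Csn1s2b, Csn2, Csn3, Wap, Lalba, Glycam1, Btn1a1 and Xdh), taken by their symbols from the 55385 genes of each library. All 10 were found once and all 10 passed the filter on low counts. RNA sequencing was done on tumor tissue of female NeuT/ATTAC mice, 3 libraries labelled Control and 3 labelled DMHCA. In these mice the MMTV promoter, which is active in mammary epithelium, drives a constitutively active rat ErbB2 gene, and the FABP4 promoter drives an FKBPv-caspase-8 fusion in fat that is switched on by the dimerizer AP20187. Per the methods, both groups received AP20187 at 0.4 mg/kg from 6 weeks of age, although the treatment label of the controls, "AP20187 Vehicle", can also be read as vehicle alone. The treated group also received DMHCA, a synthetic sterol that activates the liver X receptors, at 0.05% of their food, which equals about 100 mg/kg, starting at 8 weeks. The age at collection, the estrous stage and any earlier pregnancy of the mice are not given in the sources used here. The tissue label reads mammary gland fibrosis, and the tissue was pulverized whole, so each library holds the RNA of every cell type in the piece. The epithelial keratin gene Krt8 lay at 624 to 1221 TPM, a length-corrected level that sums to the same total in each library, and Epcam at 926 to 1494 TPM in the 6 libraries, and Erbb2 at 191 to 635 TPM. The reads were aligned to the mouse genome, so the Erbb2 level does not separate the rat gene from the mouse gene. Total counts were between 46358654 and 63420620 per library. DMHCA libraries 1 and 3 were near-identical, with a biological coefficient of variation (the variation beyond sampling) of 0.0327 against 0.376 to 0.579 for the other 5 pairs within a group, so they were counted as 1 sample and n is 3 Control and 2 DMHCA samples. The study's text gives 3 mice per group, while the labels do not tie a library to a mouse, so p-values measure the spread between these samples.

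Milk proteins are made by the alveolar luminal cells of the mammary gland. The hormone prolactin, acting through its receptor, the kinase Jak2 and the transcription factor Stat5, turns on their genes in pregnancy and lactation, together with glucocorticoids and with the transcription factor Elf5. The caseins form calcium phosphate micelles, in which the alpha and beta caseins bind calcium and kappa-casein coats and stabilizes the particle. Whey holds the soluble proteins, and milk fat leaves the cell wrapped in a membrane that carries butyrophilin and xanthine dehydrogenase. Mammary tumors driven by ErbB2 are luminal and can keep part of this program.

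Stat5 binds palindromic sites of the form TTCNNNGAA, and the stretch just before the RefSeq start of the gene is shown for Csn2, Glycam1 and Wap, whose levels were ordered alike across the samples, and for Lalba, whose levels did not. RefSeq promoters (GRCm38.p6) were matched for 6 of the 10 genes, Csn1s1, Csn1s2a, Csn2, Wap, Lalba and Glycam1. Each line gives the 250 bases before the RefSeq start, 5′ to 3′ on the gene's strand, with a match to TTCNNNGAA in capitals. The windows are those of Csn2 (chr5:87699426-87699675, minus strand), Glycam1 (chr15:103565082-103565331, minus strand), Wap (chr11:6638650-6638899, minus strand) and Lalba (chr15:98482684-98482933, minus strand). The RefSeq start can differ from that of the annotation used for gene positions: the Csn2 window lies mostly inside the gene span given below, and the bases after the start were found in no annotated transcript of Wap or Csn1s2a. Lalba was added to this set after its values were seen.
Csn2: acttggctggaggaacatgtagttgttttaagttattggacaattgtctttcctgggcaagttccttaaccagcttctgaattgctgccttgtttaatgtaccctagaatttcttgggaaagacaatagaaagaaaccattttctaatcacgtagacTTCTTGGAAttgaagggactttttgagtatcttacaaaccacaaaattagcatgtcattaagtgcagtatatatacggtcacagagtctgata
Glycam1: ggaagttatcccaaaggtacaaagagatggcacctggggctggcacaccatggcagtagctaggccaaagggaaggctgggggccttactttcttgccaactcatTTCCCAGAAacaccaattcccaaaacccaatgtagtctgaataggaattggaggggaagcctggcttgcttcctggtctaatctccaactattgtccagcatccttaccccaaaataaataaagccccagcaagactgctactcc
Wap: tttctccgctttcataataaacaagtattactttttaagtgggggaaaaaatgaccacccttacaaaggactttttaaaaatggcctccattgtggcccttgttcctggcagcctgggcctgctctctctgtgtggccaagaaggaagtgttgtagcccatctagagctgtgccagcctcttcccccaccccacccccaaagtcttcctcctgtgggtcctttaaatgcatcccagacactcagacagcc
Lalba: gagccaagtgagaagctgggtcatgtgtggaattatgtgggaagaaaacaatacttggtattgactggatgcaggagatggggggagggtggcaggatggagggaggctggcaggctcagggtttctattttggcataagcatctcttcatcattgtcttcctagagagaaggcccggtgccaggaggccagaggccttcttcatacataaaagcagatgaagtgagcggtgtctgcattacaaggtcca
The match in Csn2 began 93 bases and that in Glycam1 145 bases before the start. Csn1s1 also held a match, which began 100 bases before its start, so 3 of the 6 promoters had at least 1 match. Of all 32851 RefSeq promoters, 7.02% had a match to these letters in the same window. The C/EBP motif TTGCNNAA, searched on both strands, was in 0 of the 6 promoters and in 9.56% of all promoters. These matches describe letters in these windows only.

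The calcium-sensitive caseins varied widely among the control tumors. Csn2 (ENSMUSG00000063157, chromosome 5 of GRCm38, 87692624 to 87699630, minus strand) encodes beta-casein, a main calcium-binding protein of the micelle. Its level was 766, 15.2 and 13320 TPM in control libraries 1, 2 and 3, and 62.6, 19.5 and 50.3 TPM in DMHCA libraries 1, 2 and 3. Control library 3 was far above every other library, while control library 2 was the lowest of all 6 by TPM and lay just under DMHCA library 2, so the groups overlapped. The order of Csn2 below means control 3, control 1, the DMHCA pair and then both number 2 samples, in either order. The expected counts behind these levels were 29203, 796 and 486950 in the control libraries and 2459, 673 and 1881 in the DMHCA libraries. The highest control was 877 times the lowest, and over the 3 controls Csn2 had the second widest range of the 19427 genes tested.

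Csn1s1 (ENSMUSG00000070702, chromosome 5, 87666208 to 87682578), which encodes alpha-S1-casein, had 679, 12.8 and 7187 TPM in control libraries 1, 2 and 3 and 147, 14.1 and 151 TPM in the DMHCA libraries. Csn1s2a (ENSMUSG00000061937, chromosome 5, 87774567 to 87788797), an alpha-S2-casein gene, had 719, 13.6 and 11332 TPM in the controls and 144, 20.2 and 137 TPM after DMHCA. Both had that order, with control libraries 3 and 1 on top, the DMHCA pair in the middle, and control library 2 and DMHCA library 2 together at the bottom. Csn1s2b (ENSMUSG00000061388, chromosome 5, 87808082 to 87824426), the paralog next to Csn1s2a, was expressed at a much lower level, with 6.61, 0.32 and 21.8 TPM in the controls and 0.33, 0.28 and 0.66 TPM in the DMHCA libraries. Its counts were 159, 10 and 509 in the controls and 8, 6 and 14 after DMHCA, so its 4 lowest libraries rest on few reads. The counts of both paralogs were whole numbers in all 6 libraries, so no fraction of a read was assigned to either. The level of Csn1s2a was 42.5 to 519 times that of Csn1s2b on the TPM scale.

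Kappa-casein did not share this variation. Csn3 (ENSMUSG00000001622, chromosome 5, 87925579 to 87932665) had 21203, 16773 and 22145 TPM in control libraries 1, 2 and 3, and 23156, 12114 and 23866 TPM in DMHCA libraries 1, 2 and 3. Its rank by TPM among all genes was 1 in control library 3 and DMHCA libraries 1 and 3, 2 in control library 1 and 3 in the other libraries. The highest of the 5 samples was 1.94 times the lowest, and only DMHCA library 2 stood apart, below the other libraries. In control library 2, where the TPM of Csn1s1, Csn1s2a and Csn2 together came to 0.00416% of all TPM, Csn3 alone held 1.68%. Csn3 made up 99.3% of the TPM of the 10 genes there, 97.7% in DMHCA library 2, 86.6% in the first control library, 84.0% in each of DMHCA libraries 1 and 3, and 38.7% in control library 3. The ratio of Csn3 to Csn2 on the TPM scale therefore ran from 1.66 in control library 3 to 1105 in control library 2. The expected counts of Csn3 were not whole in any library, so a part of its reads also fits another gene, whereas those of 8 of the other 9 genes were whole in every library, Xdh being the exception.

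**Figure D1:**
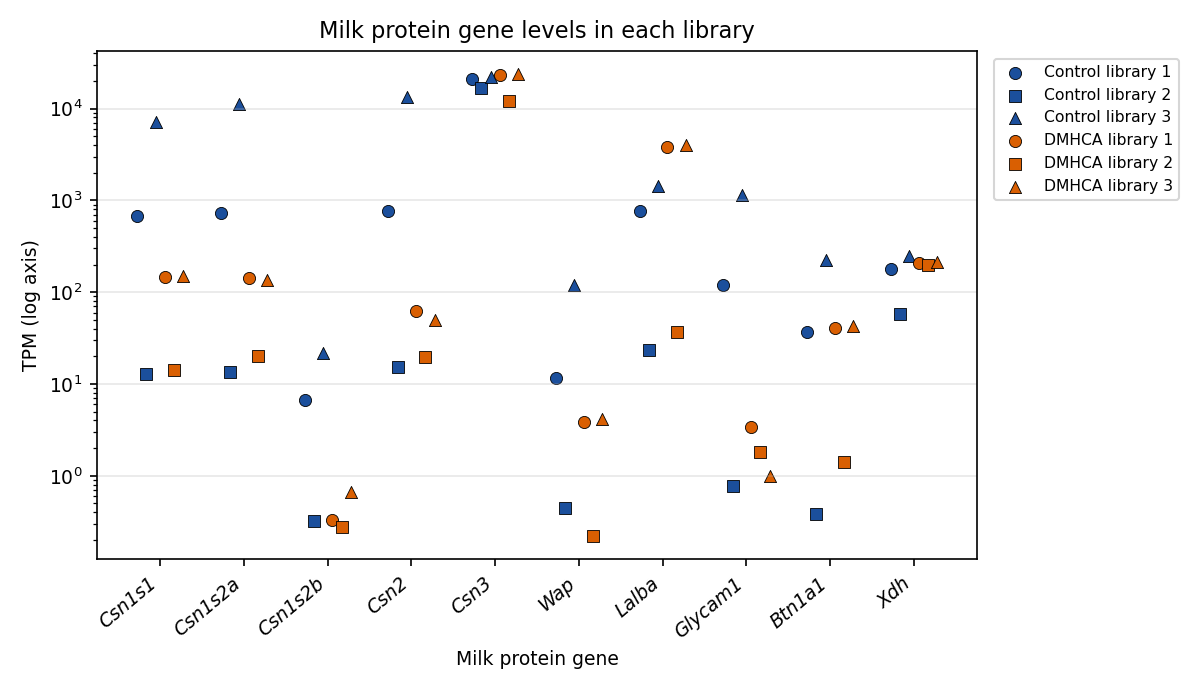
TPM of each milk protein gene (log axis) in the 3 Control libraries (blue) and the 3 DMHCA libraries (orange), with 1 point per library and no averaging. Csn3 sits between 12114 and 23866 TPM in every library, while Csn2 runs from 15.2 to 13320 TPM within the controls and the DMHCA points fall inside that range.

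The whey genes followed different orders. Wap (ENSMUSG00000000381, chromosome 11, 6635482 to 6638637), the whey acidic protein gene and a late marker of secretory differentiation, had 11.6, 0.44 and 120 TPM in control libraries 1, 2 and 3 and 3.83, 0.22 and 4.19 TPM in the DMHCA libraries. Its counts were 169, 9 and 1756 against 58, 3 and 60, so the low libraries hold a handful of reads. Control libraries 3 and 1 were again on top, the DMHCA pair was next, and both number 2 libraries were at the bottom, with DMHCA library 2 the lower. Lalba (ENSMUSG00000022991, chromosome 15, 98480400 to 98482721) encodes alpha-lactalbumin, the subunit that turns a galactosyltransferase into lactose synthase. It had 760, 23.6 and 1424 TPM in the controls and 3799, 36.7 and 3962 TPM in DMHCA libraries 1, 2 and 3. DMHCA libraries 1 and 3 were the highest of all, above control library 3, while DMHCA library 2 was down with control library 2. Within the DMHCA group the 2 samples differed 106 times in Lalba and 2.89 times in Csn2.

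Glycam1 (ENSMUSG00000022491, chromosome 15, 103562759 to 103565081) encodes a mucin-like glycoprotein that is secreted into milk and is also made by the high endothelial venules of lymph nodes. It had 119, 0.77 and 1133 TPM in control libraries 1, 2 and 3 and 3.4, 1.8 and 1.0 TPM in DMHCA libraries 1, 2 and 3. Control libraries 1 and 3 were high and the other 4 libraries were at or near the bottom. Its counts in the DMHCA libraries were 62, 29 and 18, and 19 in control library 2, against 2105 and 20019 in control libraries 1 and 3. The highest control was 1471 times the lowest, the widest spread of the 10 genes on the TPM scale. The B cell and lymph node markers given further on were high in the same 2 libraries, at 79.6 and 771 TPM summed, and their part in the Glycam1 values was not tested.

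The genes of the milk fat globule membrane differed from each other. Btn1a1 (ENSMUSG00000000706, chromosome 13, 23456992 to 23465901) encodes butyrophilin, a membrane protein needed for release of fat droplets. It had 36.7, 0.38 and 227 TPM in the controls and 40.5, 1.40 and 43.1 TPM in DMHCA libraries 1, 2 and 3, so that control library 1 and the DMHCA pair lay side by side and both number 2 libraries were low. Xdh (ENSMUSG00000024066, chromosome 17, 73883895 to 73950196) encodes xanthine dehydrogenase, which binds butyrophilin on the globule and also degrades purines in many tissues. It had 178, 58.4 and 249 TPM in the controls and 206, 196 and 211 TPM after DMHCA. Only control library 2 was low for Xdh, and the DMHCA libraries were close together inside the range of the controls.

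The question of the comparison is whether tumors of DMHCA-treated mice differed from control tumors in these genes. The groups separated without overlap in 0 of the 10 genes, while 25.9% of all genes tested did so in either direction (12.2% with every control sample higher and 13.8% with every DMHCA sample higher). After Benjamini-Hochberg adjustment of edgeR's quasi-likelihood p-values over all 19427 genes, 0 of the 10 genes and 0 of all genes (0%) passed 0.05. At an unadjusted p under 0.05, 3 of the 10 genes had a lower fitted level with DMHCA, against 4.08% of all genes in that direction and 7.61% in either. These 3 were Glycam1, Csn1s2b and Csn2. The count was 6 without control library 2 (6.48% of all genes), 2 without control library 3 (3.27%) and 0 without DMHCA library 2 (1.48%), where a lone DMHCA sample is assumed to vary like the controls. It stayed at 3 without control library 1 (3.37%), DMHCA library 1 (4.24%) or DMHCA library 3 (4.17%). A fitted level at least 3-fold lower with DMHCA was found for 7 of the 10 genes and for 6.86% of all genes. The median log2 fold change of DMHCA over Control was -4.59 for the 10 genes and -0.03 for all genes. For any single gene with a lower level in bulk tissue, a smaller share of secretory cells and less of its RNA in each of them cannot be told apart.

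The largest fitted difference was that of Glycam1, at -7.81 ± 2.70 (log2 fold change ± standard error; edgeR's adjusted p = 0.644). On the TPM scale its mean was 418 ± 622 in control samples (SD, n = 3) and 2.0 ± 0.28 in DMHCA samples (SD, n = 2), and the SD of the controls was larger than their mean. For Csn2 the log2 fold change was -7.02 ± 2.68 (edgeR's adjusted p = 0.644), and the means were 4701 ± 7474 TPM against 38.0 ± 26.1 TPM. On log2(TPM + 1) limma gave smaller differences, of -4.38 for Glycam1 and -4.00 for Csn2. The fitted log2 fold changes of Csn1s2a, Csn1s1, Csn1s2b and Wap were -5.74, -5.10, -4.75 and -4.43, with standard errors of 2.59, 2.44, 1.65 and 2.25. The lowest adjusted p among these 4, by edgeR, was 0.644. Their values on log2(TPM + 1) by limma were -3.17, -3.10, -2.15 and -2.39, and without control library 3 they were -2.16, -2.05, -3.21 and -1.43 by edgeR. Btn1a1 had a log2 fold change of -2.12 with a 95% interval from -7.26 to 3.02. For Lalba the value was 1.37, with an interval from -2.86 to 5.61, so neither a decrease nor an increase could be read from it. Csn3 had a log2 fold change of -0.34 and the narrower interval of -1.57 to 0.89, and Xdh one of 0.35 with an interval of -0.87 to 1.56. The intervals of Csn3 and Xdh exclude a change as large as the fitted values of the other caseins, which range from -7.02 to -4.75.

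The fitted values depended strongly on control library 3. Without control library 3, the median log2 fold change of the 10 genes was -1.74, and 5 of the 10 had a fitted level at least 3-fold lower, against 3.22% of all genes. Csn2 then had a log2 fold change of -3.34 and Glycam1 of -4.87, while Btn1a1 changed sign to 0.28. Without control library 2 the values moved the other way, to -7.60 for Csn2 and -8.40 for Glycam1, with 7 genes at least 3-fold lower (8.01% of all genes), and without control library 1 the count was also 7 (7.26%). With DESeq2 on the 5 samples, Csn1s2b and Glycam1 passed the adjusted threshold as lower, which makes 2 of the 10 genes and 0.957% of all genes. With the 6 libraries as separate samples Csn2 passed as well, which makes 3 of the 10 genes and 2.95% of all genes. In the higher direction 0 of the 10 genes passed in either fit, where the shares of all genes were 0.247% and 1.43%.

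**Figure D2:**
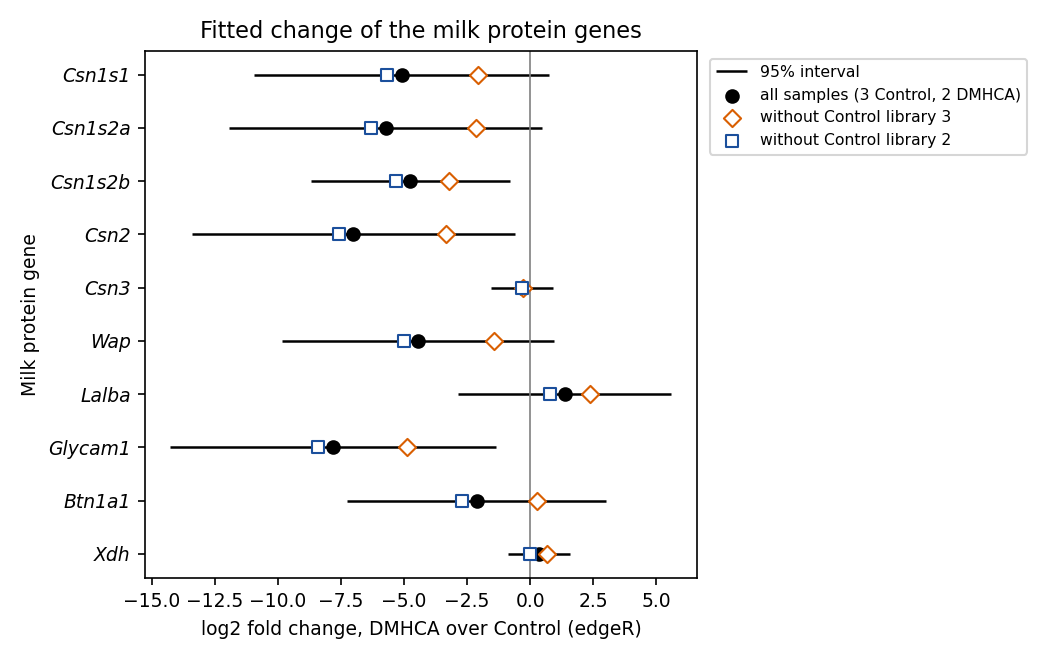
Fitted log2 fold change of DMHCA over Control for each gene (filled circles), with its 95% interval (lines), and the same value without control library 3 (diamonds) or control library 2 (squares). The intervals of Csn3 and Xdh are short and span 0, and leaving out control library 3 shifts Csn2 from -7.02 to -3.34.

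The spread among the samples followed a repeated order. Control library 3 was the highest of the 5 samples for 8 of the 10 genes, the exceptions being Csn3 and Lalba, against 27.4% of all genes. Control library 2 or DMHCA library 2 was the lowest for all 10, against 47.9% of all genes. Read from the values, the complete order control 3, control 1, the DMHCA pair and then both number 2 samples held for 6 genes (Csn1s1, Csn1s2a, Csn1s2b, Csn2, Wap and Glycam1), and for 5.77% of all genes. For Glycam1 it held for DMHCA libraries 1 and 3 together, while DMHCA library 3 alone, at 18 counts and 1.0 TPM, lay below DMHCA library 2, at 29 counts and 1.8 TPM. Csn1s2b also has its place only through the pair, since DMHCA library 1 had 8 counts and 0.33 TPM against 10 counts and 0.32 TPM in control library 2. The range over the 3 controls was at least 3 log2 units for 8 of the 10 genes, all but Csn3 and Xdh, and for 2.1% of all genes. The 9 genes other than Csn3 took 3.50%, 0.328% and 0.0126% of all TPM in control libraries 3, 1 and 2, 0.441% and 0.456% in DMHCA libraries 1 and 3, and 0.029% in DMHCA library 2. With Csn3 included, the share was 3.28 ± 2.14% in control samples (SD, n = 3) and 2.02 ± 1.10% in DMHCA samples (SD, n = 2). Without control library 3 the share in the controls was 2.07 ± 0.536% (SD, n = 2), close to that after DMHCA.

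The hormone inputs that lead to milk protein synthesis include receptors, kinases and transcription factors. Of the 16 genes of prolactin and hormone input, 0 had an adjusted p under 0.05 by edgeR, 2 had an unadjusted p under 0.05 in the lower direction (4.08% of all genes) and 0 in the higher (3.53%). These 2 were Esr1, the estrogen receptor gene, at -1.40 ± 0.33 (log2 fold change ± standard error), and Areg, an EGF-family ligand induced by estrogen, at -2.70 ± 0.81, both with an edgeR adjusted p = 0.644. Esr1 had 4.11, 3.63 and 4.72 TPM in the controls and 1.93, 1.69 and 1.94 TPM after DMHCA, without overlap. The following genes were picked after their values were seen. The prolactin receptor gene Prlr lay between 14.4 and 26.8 TPM in the 6 libraries, Stat5a between 12.6 and 34.3 TPM, and Elf5 between 115 and 331 TPM. Their highest sample was 1.86, 2.73 and 2.81 times the lowest, against 877 times for Csn2. The progesterone receptor gene Pgr and its target Wnt4, 2 of the 16 genes (5.77% of all genes), did follow the order of Csn2, at low levels. Pgr had 0.54, 0.03 and 1.54 TPM in the controls and 0.25, 0.02 and 0.26 TPM in the DMHCA libraries.

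**Figure D3:**
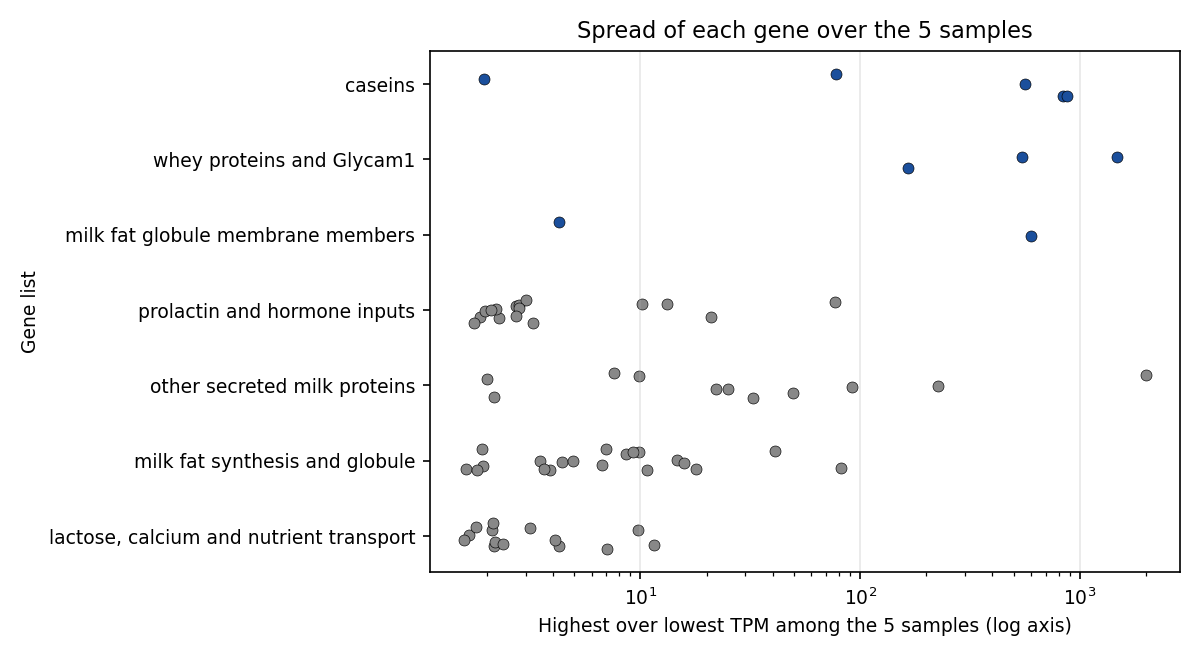
Highest over lowest TPM among the 5 samples (log axis) for each gene of the milk protein groups (blue) and of 4 lists of related genes (grey), with 1 point per gene and a random vertical offset. Prlr, Stat5a and Elf5, picked after their values were seen, lie at 1.86, 2.73 and 2.81, and 8 of the 10 milk protein genes at about 78.0 or more. The grey lists also hold wide genes, among them Pgr at 77.0 and Lao1 at 1993, so a wide spread is not particular to the milk protein genes.

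Other secreted milk proteins were a mixed group. Of 11 genes, 10 had a lower fitted level with DMHCA (52.0% of all genes) and 1 a higher, 3 had an unadjusted p under 0.05 in the lower direction (4.08% of all genes) and 0 an adjusted p under 0.05 by edgeR, with a median log2 fold change of -2.21. Ltf, which encodes the iron-binding protein lactoferrin, had 407, 34.3 and 3151 TPM in the controls and 80.7, 35.1 and 80.8 TPM in the DMHCA libraries, the order of Csn2 again. The fitted log2 fold change of Ltf was -4.35 ± 1.78, with an edgeR adjusted p = 0.644. Spp1, the osteopontin gene, did not follow that order, with 10876, 13349 and 10250 TPM in the controls and 557, 1527 and 506 TPM after DMHCA. The fitted log2 fold change of Spp1 was -3.75 ± 0.67 (edgeR adjusted p = 0.644), and control library 2 was its highest library.

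Genes of milk fat synthesis went in both directions. Of 20 genes, 10 had a lower (52.0% of all genes) and 10 a higher fitted level, with 2 lower (4.08% of all genes) and 5 higher (3.53%) at an unadjusted p under 0.05, and 0 at an adjusted p under 0.05 by edgeR. Every DMHCA sample lay above every control sample for 8 of them in normalized counts (13.8% of all genes) and for 7 by TPM, and the controls were higher without overlap for 3 in normalized counts (12.2% of all genes) and for 1 by TPM. The desaturase gene Scd1 had 208, 113 and 390 TPM in the controls and 1797, 2018 and 1849 TPM after DMHCA, a fitted log2 fold change of 2.87 ± 0.53 with an edgeR adjusted p = 0.644. Olah, the mammary thioesterase that releases medium-chain fatty acids, was fitted at -3.62 ± 1.44 on the log2 scale, with 8.20 TPM in control library 3 and under 1 TPM in the others. For lactose, calcium and nutrient transport, 0 of 14 genes had an unadjusted p under 0.05 (7.61% of all genes), and the 2 with the smallest were B4galt1 and the folate receptor gene Folr1. B4galt1, the galactosyltransferase that pairs with alpha-lactalbumin, had 52.1, 28.6 and 68.7 TPM in the controls and 119, 72.3 and 125 TPM in the DMHCA libraries, with control library 3 just below DMHCA library 2 on this scale and above it in normalized counts. Its fitted log2 fold change was 0.82 ± 0.40. Of 10 involution genes, 3 had an unadjusted p under 0.05, all lower with DMHCA (4.08% of all genes), and Mmp3, a matrix protease, and Cebpd, a transcription factor of early involution, had fitted log2 fold changes of -2.10 ± 0.44 and -1.12 ± 0.26.

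All 5 casein genes lie in 266 kb of chromosome 5, and other genes are expressed within 300 kb of them. Csn1s1 and Csn2 are about 10.0 kb apart and transcribed toward each other, while 101 kb separates Csn1s2b from Csn3. Besides the caseins, 7 genes there were tested or reached a count of 10 in a library, and 6 of these were tested. BC051076, an antisense gene just after Csn3 with at most 17 counts, was not tested, and had 0.06, 0.01 and 0.17 TPM in the controls and 0.02, 0.02 and 0.07 TPM in DMHCA libraries 1, 2 and 3. Sult1d1 and Smr2 had log2 fold changes of -0.56 and 1.27, and the 4 named next did not follow that order. Odam, which lies between Csn1s2b and Csn3 and encodes an enamel-associated protein, had 10.2, 2.68 and 1.90 TPM in the controls and 2.65, 3.39 and 2.72 TPM after DMHCA. The lincRNA BC037156, directly before Csn3, had 478 TPM in control library 1 and 0.44 to 1.26 TPM in the others. Smr3a, a salivary gland gene after Csn3, had 1200 TPM in control library 1 and 0.40 to 4.83 TPM elsewhere. Sult1e1, the estrogen sulfotransferase gene before Csn1s1, had 62.1 TPM in DMHCA library 2 and 0.15 to 0.81 TPM in the other 5 libraries. Each of these 3 genes was thus high in 1 library only, and in none of them was that library control library 3, the highest for Csn2.

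Several marker lists of other cell types were highest in control library 3, as most milk protein genes were. The 10 B cell and lymph node markers were all highest in control library 3, as were 27.4% of all genes, with a summed level of 771 TPM there, 79.6 and 3.49 TPM in control libraries 1 and 2, and 14.4, 5.61 and 15.3 TPM in DMHCA libraries 1, 2 and 3. Cd79a, a part of the B cell receptor, had 102 TPM in control library 3 and 0.06 TPM in control library 2. The complete order of Csn2, held by 5.77% of all genes, was that of all 5 T cell markers and 6 of the 10 B cell markers. It was also that of 3 of the 8 basal and 0 of the 6 adipocyte markers below. The 5 T cell markers were also highest in control library 3, with sums of 13.1, 1.05 and 113 TPM in the controls and of 3.26 to 5.95 TPM after DMHCA. The 6 adipocyte markers summed to 210, 124 and 965 TPM in the controls and to 68.8 to 69.6 TPM in the DMHCA libraries, and the controls lay above the DMHCA samples without overlap for all 6 in normalized counts (12.2% of all genes) and for 4 of the 6 by TPM. The 8 basal epithelial markers, which include the myoepithelial keratin gene Krt14, were likewise all highest in control library 3 (sums of 33.1 to 132 TPM in the controls and of 48.3 to 65.9 TPM after DMHCA). The part of lymph node, fat or duct tissue in the milk protein values was not tested. The 9 luminal markers summed to 3484 to 4507 TPM in the controls and 5116 to 5200 TPM after DMHCA, lowest in control library 3, and of these Krt19 alone was highest there, at 435 TPM against 4.73 TPM in control library 2.

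The salivary list behaved differently. It summed to 8780 TPM in control library 1 and to 15.1 to 126 TPM in the other 5 libraries, and 5 of its 6 genes were tested, with Muc19 at or near 0 in all libraries. Bpifa2, a secreted protein of the parotid gland, had 5131 TPM in control library 1 and 2.59 to 21.3 TPM elsewhere. The 9 milk protein genes other than Csn3 took 0.328% of all TPM in this library, against 3.50% in control library 3. The share of salivary tissue in the values of control library 1 was not tested, and without that library the log2 fold change of Csn2 was -7.55. The 4 skeletal muscle markers (176 to 777 TPM summed), the 4 macrophage markers (71.4 to 147 TPM) and the 5 skin markers (3.76 to 10.1 TPM) did not repeat the order of Csn2.

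**Figure D4:**
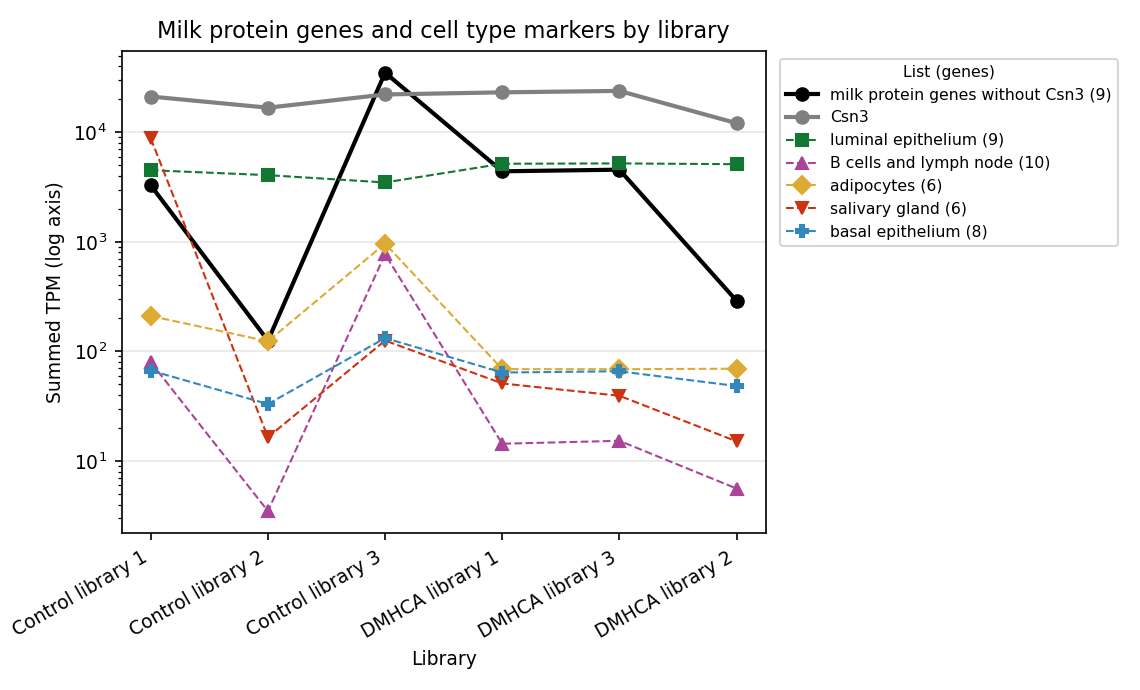
Summed TPM (log axis) of the milk protein genes without Csn3, of Csn3 and of 5 marker lists in each library, with the DMHCA pair side by side and lines drawn only to join the points of a list. The milk protein sum and the B cell list both peak in control library 3 and are lowest in control library 2, while the luminal list stays between 3484 and 5200 TPM and the salivary list peaks in control library 1.

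The genes whose pattern was most like that of Csn2 were found by Pearson's r on the log2 of normalized CPM plus 1 over the 5 samples, among 717 genes outside the 10 with a range of at least 3 log2 units. The 10 closest were Ltf, Ltb, Bpifb5, Marco, Ighd, Ms4a1, Vmn2r124, Gimap3, Cd79a and Pinc, with r from 0.998 to 0.991 over 5 samples. Ltf encodes a milk protein, Ltb, Ighd, Ms4a1 and Cd79a are genes of lymphocytes, and Marco is a macrophage scavenger receptor. Among the milk protein genes themselves the same measure was 0.979 to 0.991 for Csn1s1, Csn1s2a, Csn1s2b, Wap and Glycam1, 0.873 for Btn1a1, 0.601 for Lalba, 0.498 for Xdh and 0.462 for Csn3. Since 163 of the 717 genes reached 0.95, closeness to Csn2 over 5 samples is a description of these libraries.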

How the data were processed

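RNA from 3 Control and 3 DMHCA tumors was sequenced, and the authors checked reads with FastQC (0.11.9), trimmed adapters with cutadapt (2.9), and aligned and counted paired-end reads with RSEM (1.3.1) on a Bowtie2 (2.4.1) index of mm10, per the labels. The authors deposited RSEM's expected counts (not normalized), TPM (length-corrected and scaled to the same total per library) and FPKM (not used here) for 55385 genes per library. The strand setting is not given in the sources used here.

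Expected counts were rounded. Libraries 1 and 3 of DMHCA were summed (TPM averaged), as their biological coefficient of variation, taken over genes averaging 100 counts or more, lay below 0.1 and was exceeded more than 5-fold by each remaining pair. By chi-square at the 0.05 level 18.2% of 13380 genes still differed between them, against 82.0% to 87.0% in the other pairs. The 5 samples were compared in edgeR 4.0.16 (R 4.3.3) with TMM, filterByExpr (minimum count 10, minimum total 15), a quasi-likelihood fit and Benjamini-Hochberg adjustment over 19427 genes. Standard errors are the log2 fold change over the square root of F. Alternatives were DESeq2 1.42.0, limma 3.58.1 on log2(TPM + 1) and log2(TPM + 0.1), other normalizations and filters, and each library left out. The fit was also run on counts simulated without an outlying library, a setting that differs from these genes, so it does not test the fit for them. Python 3.11.15 with pandas 2.3.3, numpy 2.4.6 and matplotlib 3.10.9 joined and plotted the tables. The 10 genes and the lists were chosen with earlier results of these data known. All 10 are named, with, per related list, the 2 genes of largest absolute fold change at an unadjusted p under 0.05 (or the 2 with the smallest p), the 10 genes most like Csn2 and the neighbours of the caseins. Positions are from GENCODE M21 on GRCm38, which held 55144 of the 55385 genes (99.6%).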

Additional observations from a re-analysis of the deposited data

How the results depend on the processing

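Of 170 values for the 10 genes under 17 alternatives each, 162 kept their direction and their side of the adjusted threshold. The sign reversed in 3. Most edgeR settings called 0 of all genes, so few values could cross the threshold. A kept direction is not a kept size, since without Control library 3 Csn2 went from -7.02 to -3.34 and Wap from -4.43 to -1.43. With each library left out in turn, Csn3 ranged from -0.39 to 0.15 (the highest without DMHCA library 2), Btn1a1 from -2.71 to 0.28 (the highest without Control library 3) and Xdh from -0.019 to 0.67 (the lowest without Control library 2). DESeq2 on the 5 samples called 244 of all genes and 2 of the 10, DESeq2 on the 6 libraries called 882 and 3, and edgeR with no filter on low counts called 16 genes and 0 of the 10. Every other edgeR setting called 0 genes and 0 of the 10, with 918 to 3207 genes at an unadjusted p under 0.05. As each library was left out in turn, the median log2 fold change of the 10 genes ranged from -5.16 to -1.74, the last without Control replicate 3. Without DMHCA replicate 2 a single DMHCA sample remains, assumed to vary like the controls, and 0 of the 10 genes had an unadjusted p under 0.05.

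Deviations of same-numbered libraries from their group means correlated at -0.05, 0.34 and 0.35 across genes. Control library 1 did not correlate best with its own number. Control library 3 correlated at 0.34 and 0.35 with the near-identical DMHCA libraries 1 and 3, so this check could not decide on pairing. The numbers were not taken as pairs in the main fit. With the number as a replicate block on the 6 libraries, 0 genes had an adjusted p under 0.05, the median of the 10 genes was -2.64, Csn2 was -3.75 and Glycam1 was -5.10. The genes with an unadjusted p under 0.05 were then Csn1s2b (-3.71), Wap (-2.84) and Lalba (1.29, higher with DMHCA), in place of Csn1s2b, Csn2 and Glycam1. In that edgeR fit 3207 of all 18674 genes had an unadjusted p under 0.05, against 1478 of 19427 in the main fit. With each library left out in turn, an alternative chosen after seeing the data, the share of TPM in the 10 genes ranged from 2.07% to 4.08% in controls and from 1.998% to 2.80% after DMHCA. As a share of counts instead of TPM, the 10 genes took 2.29% in controls and 1.18% after DMHCA. The low levels of Wap and Csn1s2b in both number 2 samples rest on 3 to 10 reads.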

Other observations

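DMHCA libraries 1 and 3, otherwise near-identical, differed in Glycam1 and Csn2. Glycam1 had 62 and 18 counts, 3.25 times as much per read in library 1, and among 2836 genes with a summed count within 2-fold of it 0.282% had a ratio at least as high. Csn2 had 2459 and 1881 counts, 1.23 times as much per read, a ratio reached by 0.279% of 5370 genes with a similar summed count. The other major genes were closer, with ratios of 0.972 for Csn1s1, 1.05 for Csn1s2a, 0.967 for Csn3 and 0.956 for Lalba. Csn1s2b had a ratio of 0.538, on 8 and 14 counts.

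Glycam1 is also a gene of high endothelial venules, so 3 genes of those vessels were looked up after its values were seen. Chst4, Fut7 and Madcam1 were all highest in control library 3, with 1.54, 1.44 and 3.04 TPM, and summed to 6.02 TPM there, 0.76 TPM in control library 1, 0.32 TPM in control library 2 and 0.14 to 0.27 TPM in the DMHCA libraries. Lao1, an amino acid oxidase secreted in mouse milk, had 3.89, 0.03 and 59.8 TPM in the controls and 3.93, 0.06 and 3.67 TPM in DMHCA libraries 1, 2 and 3, and Thrsp, a lipogenic gene, had 24.8, 3.26 and 238 TPM in the controls and 126, 2.9 and 135 TPM after DMHCA. Both were low in the number 2 libraries, as Csn1s1, Csn1s2a, Csn1s2b and Csn2 were, and a number 2 sample was the lowest for 47.9% of all genes. Lao1 and Thrsp were picked from lists of 11 and 20 genes, outside the rule for naming. Other members of these lists went the other way, such as Spp1, highest in control library 2, and Cidea, highest in DMHCA library 2. Among salivary markers, Prol1 was not raised in control library 1 (1.95 TPM) and was highest in DMHCA libraries 1 and 3 (16.9 and 16.6 TPM).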
